A study of Homo sapiens with 4 samples.

Results

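The ATP-binding cassette (ABC) genes encode proteins that bind and hydrolyse ATP, most of them to move a substrate across a membrane. They were followed here in MDA231-BR, the brain metastatic derivative (MDAMB231Br) of a human breast cancer line, set against MDA231-P, the breast cancer line MDAMB231 itself. Members were the rows whose symbol is ABC, a subfamily letter from A to G and a number, with pseudogenes left out. The rule gave 31 of 15279 named genes, with 9 in subfamily ABCA, 5 in ABCB, 8 in ABCC, 3 in ABCD, 1 in ABCE, 3 in ABCF and 2 in ABCG. A further 14 protein-coding genes of the RefSeq annotation match the rule but had no value under their symbols, so they were not analysed here. They are ABCA6, ABCA8, ABCA9, ABCB1, ABCB4, ABCB5, ABCB11, ABCC6, ABCC8, ABCC12, ABCD2, ABCG4, ABCG5 and ABCG8. ABCB1, the P-glycoprotein drug pump, therefore has no value below. CFTR, an ABC protein that works as a chloride channel, falls outside the rule and also had no value under its symbol.

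RNA-seq data covered 2 libraries of MDA231-BR cells and 2 of MDA231-P cells, both lines grown in culture in DMEM with 10% FBS and PS, with no treatment in the labels. Separate cultures behind the 2 libraries of a line are not stated in the labels. A p-value here sets the difference between the lines against the spread of libraries only, which may be technical. The labels also do not say how the brain metastatic line was derived or whether it is a single clone. Columns of the deposited table carry only the name of a line, so the libraries are called A and B in column order, and a letter does not pair a library of one line with one of the other.

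An ABC protein works with a pair of nucleotide-binding domains, either in 1 polypeptide or after joining with a partner. ABCA proteins and ABCG1 move sterols and phospholipids, the ABCC proteins include the multidrug resistance-associated pumps for drugs and glutathione conjugates, several ABCB proteins sit in mitochondria, and the ABCD proteins sit in peroxisomes and lysosomes. ABCE1 and the ABCF proteins have no membrane-spanning part and act in translation. In breast cancer the family is best known for drug efflux, through ABCB1, ABCC1 and ABCG2.

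Named genes together received 28107820 and 25835225 reads in MDA231-BR libraries A and B, against 30771290 and 27554570 reads in MDA231-P libraries A and B. Genes listed for a claudin-low breast line (VIM, CD44, AXL, CAV1, ZEB1, FOSL1, EGFR and KRT18) were all present, 8 of 8. Their summed level was 8656 and 10139 CPM in MDA231-BR and 6324 and 5577 CPM in MDA231-P. CPM are recovered reads scaled to the library's total in named genes. The genes did not all move alike. VIM was higher, with 4375 and 4367 CPM in MDA231-BR and 1618 and 1438 CPM in MDA231-P. CAV1 was lower, with 400 and 357 CPM in MDA231-BR and 1065 and 1021 CPM in MDA231-P. Of 7 markers of luminal breast cells, 6 had values, summing to 184 and 138 CPM in MDA231-BR and 128 and 149 CPM in MDA231-P. Most of that was KRT19, at 162 and 110 CPM in MDA231-BR and 99.9 and 119 CPM in MDA231-P, while ESR1, the oestrogen receptor, had 0.249 and 0.968 CPM in MDA231-BR and 0 and 0.0726 CPM in MDA231-P.

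Several marker sums of the brain's own cells were higher in MDA231-BR. The 5 of 11 endothelial genes with values summed to 168 and 160 CPM in MDA231-BR and 77.6 and 91.2 CPM in MDA231-P, most of it ESAM. KDR had 19.2 and 22.0 CPM in MDA231-BR and 2.05 and 2.90 CPM in MDA231-P, and the defining cadherin CDH5 had 0.178 and 0 CPM in MDA231-BR and 0.0325 and 0.145 CPM in MDA231-P. MFSD2A went the other way, with 7.54 and 7.39 CPM in MDA231-BR and 9.91 and 9.80 CPM in MDA231-P. The 3 of 7 astrocyte genes with values summed to 54.1 and 45.8 CPM in MDA231-BR and 14.3 and 18.4 CPM in MDA231-P, most of the MDA231-BR sum being GJA1. GJA1 had 49.6 and 39.5 CPM in MDA231-BR and 6.47 and 6.79 CPM in MDA231-P. SLC1A3 went the other way, with 2.70 and 5.15 CPM in MDA231-BR and 7.12 and 10.4 CPM in MDA231-P, and ALDH1L1 overlapped between the lines. GFAP and AQP4 were among the astrocyte genes without a value. The 3 of 8 neuron genes summed to 19.9 and 30.0 CPM in MDA231-BR and 7.21 and 9.36 CPM in MDA231-P. Of oligodendrocyte markers, MBP had 139 and 146 CPM in MDA231-BR and 88.7 and 95.4 CPM in MDA231-P, and MAG was at 0 in every library. The 1 of 10 microglial and macrophage genes with a value, CSF1R, had 1.25 and 2.01 CPM in MDA231-BR and 10.0 and 12.6 CPM in MDA231-P. The 2 of 9 fibroblast and pericyte genes summed to 13.2 and 18.4 CPM in MDA231-BR and 32.3 and 22.8 CPM in MDA231-P, but moved in opposite directions. COL1A1 was higher, with 12.6 and 17.2 CPM in MDA231-BR and 3.57 and 2.98 CPM in MDA231-P. PDGFRB was lower, with 0.569 and 1.16 CPM in MDA231-BR and 28.7 and 19.9 CPM in MDA231-P. The part of other cells in the ABC values was not tested.

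The MDA231-BR libraries stood apart from each other. Interferon-stimulated genes lay at a median log2 difference from the MDA231-P mean of 0.01 in MDA231-BR library A, and of 2.04 in its library B. For unfolded protein response genes the medians were 0.17 (library A) and 1.18 (library B). Each result on an ABC gene that rests on 1 of these libraries is therefore given for both.

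Size-factor-normalized read values were compared on the log2(value + 1) scale with limma across 14424 genes, and a gene is called where its Benjamini-Hochberg adjusted p is below 0.05. A log2 difference is MDA231-BR minus MDA231-P. Of the 31 ABC genes, 28 passed the filter on low values, and ABCA4, ABCA12 and ABCC11 did not. In this comparison 6 of the 28 were called, against 14.4% of all genes tested. Of these, 4 were higher in MDA231-BR, ABCA3 and ABCA5 among them (8.61% of all genes were called higher), and 2, ABCA2 and ABCD3, were lower (5.8% were called lower). The median log2 difference was 0.19 over the 28 and 0.01 over all genes tested, and the median size of a difference, whatever its sign, was 0.67 over the 28 and 0.47 over all genes. In these bulk samples a smaller share of cells using a gene and less RNA per cell cannot be told apart.

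Of the same 28 genes, 7 were called with edgeR's quasi-likelihood test (15.4% of all genes) and 8 with DESeq2 (20.2% of all genes), the additions being ABCC9 with both and ABCA1 with DESeq2. The 6 calls were made in each of 11 fits that kept all 4 libraries, which differed in test, scaling, pseudocount or filter. They were lost with limma and with edgeR when either MDA231-P library was left out (0 ABC genes called), where the calls over all genes also dropped to 2.92% and 2.97%. They were all kept when either MDA231-BR library was left out. The lists of called genes then grew to 12 without library A and 9 without library B, beside 36.4% and 21.8% of all genes.

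**Figure D1:**
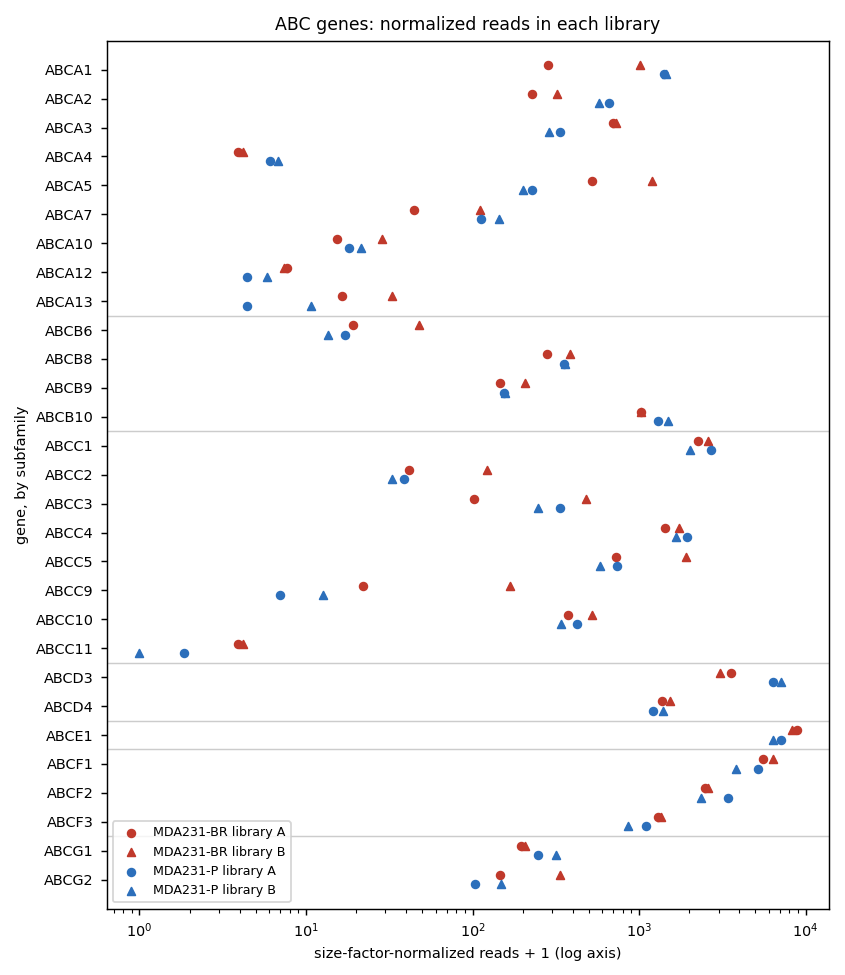
Size-factor-normalized reads + 1 of ABC genes (log axis) in MDA231-BR libraries A and B (red) and MDA231-P libraries A and B (blue), with circles for A and triangles for B and genes ordered by subfamily. The plot holds 29 of the 31 genes, and ABCD3, ABCA2 and ABCA3 show the lines apart with the libraries of each line close together, while ABCA1, ABCC3, ABCC5 and ABCC9 show the MDA231-BR libraries far apart.

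The promoters of called members are shown, and which start is used in either line was not tested. They are the 250 bases before the RefSeq transcription start of the GRCh38.p14 assembly, written 5′ to 3′ on the gene's strand. ABCA2 lies at chr9:137028923-137029172 on the minus strand, ABCA3 at chr16:2340729-2340978 on the minus strand, ABCA5 at chr17:69327134-69327383 on the minus strand and ABCD3 at chr1:94418139-94418388 on the plus strand. Capitals mark matches, on either strand, to any of 5 motifs, which were the GC box (GGGCGG), the CCAAT box (CCAAT), the E-box (CACGTG), the TATA box (TATAAA) and the antioxidant response element (TGACNNNGC).
ABCA2: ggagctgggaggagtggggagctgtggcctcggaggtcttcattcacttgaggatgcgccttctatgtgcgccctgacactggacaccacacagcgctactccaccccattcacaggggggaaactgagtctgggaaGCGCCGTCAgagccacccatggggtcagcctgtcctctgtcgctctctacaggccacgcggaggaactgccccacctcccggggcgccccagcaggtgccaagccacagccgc
ABCA3: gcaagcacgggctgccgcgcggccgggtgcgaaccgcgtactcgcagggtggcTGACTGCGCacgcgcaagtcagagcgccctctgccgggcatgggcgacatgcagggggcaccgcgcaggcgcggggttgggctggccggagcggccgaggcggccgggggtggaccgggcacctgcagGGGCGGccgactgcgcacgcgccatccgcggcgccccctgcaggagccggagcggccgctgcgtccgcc
ABCA5: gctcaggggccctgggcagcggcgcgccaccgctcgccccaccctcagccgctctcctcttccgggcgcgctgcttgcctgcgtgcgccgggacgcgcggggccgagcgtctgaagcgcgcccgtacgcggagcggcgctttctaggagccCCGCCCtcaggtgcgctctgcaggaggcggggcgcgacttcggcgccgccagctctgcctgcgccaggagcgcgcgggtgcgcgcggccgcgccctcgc
ABCD3: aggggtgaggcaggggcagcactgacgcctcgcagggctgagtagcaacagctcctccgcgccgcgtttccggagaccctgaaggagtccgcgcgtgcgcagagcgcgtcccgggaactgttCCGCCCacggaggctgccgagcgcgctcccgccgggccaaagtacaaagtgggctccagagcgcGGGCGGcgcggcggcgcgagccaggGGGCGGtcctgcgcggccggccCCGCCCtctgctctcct
ABCD3, the called gene with the highest level, held 4 GC boxes. ABCA3 held 1 GC box and 1 antioxidant response element. ABCA5 held 1 GC box, and ABCA2 held 1 antioxidant response element and no GC box. These letters are descriptions of the window and not binding sites. Promoters were matched for 25 of the 31 genes. Where a gene had several promoter entries, only the first was used, as for ABCA2 with 2 and ABCG2 with 5. The shares over all promoters count every entry. The GC box occurred in 16 of the 25 and in 42.6% of 35116 RefSeq promoters of the same length. The antioxidant response element occurred in 6 of the 25 and in 10.9% of all, the CCAAT box in 4 and 32.0%, the TATA box in 4 and 10.7%, and the E-box in 3 and 6.34%. Median GC content was 64.4% over the 25 and 58.0% over all promoters.

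Of the ABCD genes, ABCD3 was lower in MDA231-BR. ABCD3 (PMP70), an abundant peroxisomal membrane protein that brings branched-chain and dicarboxylic acyl chains and bile acid intermediates into the organelle, had 3564 and 3072 normalized reads in MDA231-BR libraries A and B, against 6364 and 7067 in MDA231-P. Both MDA231-BR libraries lay below both MDA231-P libraries, with a log2 difference of -1.02 (SE 0.22, 95% interval -1.52 to -0.51, adjusted p = 0.0210 with limma).

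Because ABCD3 held most of the reads of its subfamily, the summed ABCD level was 192 and 180 CPM in MDA231-BR and 293 and 320 CPM in MDA231-P. Other genes of peroxisomal import and beta-oxidation gave 0 higher, 1 lower and 25 not passing of 26 tested, with a median log2 difference of 0.03. Over all genes tested 8.61% were called higher and 5.8% lower. The 1 was ACOX2, the branched-chain acyl-CoA oxidase that acts on bile acid intermediates and methyl-branched chains, with 113 and 91.1 normalized reads in MDA231-BR and 198 and 286 in MDA231-P (log2 difference -1.22, adjusted p = 0.0456 with limma).

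ABCD4 releases vitamin B12 from lysosomes together with LMBRD1. It had 1367 and 1542 normalized reads in MDA231-BR and 1205 and 1381 in MDA231-P, which overlapped (log2 difference 0.17, adjusted p = 0.645 with limma). Of 8 tested genes of B12 release and use, 2 were higher, 1 was lower and 5 did not pass, beside 14.4% of all genes called. MTR, the B12-dependent methionine synthase, was higher (log2 difference 1.30, adjusted p = 0.0174 with limma), and MTRR, the reductase that keeps MTR active, was lower (log2 difference -0.88, adjusted p = 0.0382 with limma). ABCB9, a lysosomal peptide transporter, had 146 and 207 normalized reads in MDA231-BR and 154 and 155 in MDA231-P and did not pass (adjusted p = 0.747 with limma).

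The sterol and phospholipid genes, the ABCA subfamily and ABCG1, held 3 of the 6 calls among 8 tested, beside the 14.4% of all genes called. ABCA3, which loads phospholipid into the lamellar bodies of lung surfactant cells, had 697 and 728 normalized reads in MDA231-BR and 336 and 288 in MDA231-P. Every MDA231-BR value was above every MDA231-P value, by a log2 difference of 1.19 (SE 0.25, 95% interval 0.61 to 1.77, adjusted p = 0.0199 with limma). ABCA3 overlaps the pseudogene ABCA17P on the opposite strand, and the strand setting is not given in the sources used here, so reads of the 2 cannot be told apart.

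ABCA5, found on lysosomes and late endosomes, had 520 and 1187 normalized reads in MDA231-BR and 226 and 200 in MDA231-P. The lines did not overlap, but MDA231-BR library B was well above library A. The log2 difference was 1.88 (SE 0.39, 95% interval 0.98 to 2.78, adjusted p = 0.0185 with limma). It was 1.29 without MDA231-BR library B and 2.48 without library A, and the call held in both. Its neighbour ABCA10, which overlaps it on the same strand, had 14.4 and 27.6 normalized reads in MDA231-BR and 17.1 and 20.4 in MDA231-P (adjusted p = 0.920 with limma).

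ABCA2, an endolysosomal lipid transporter best known from myelinating cells, was lower in MDA231-BR. It had 226 and 320 normalized reads there and 662 and 571 in MDA231-P, with no overlap (log2 difference -1.19, SE 0.29, 95% interval -1.85 to -0.53, adjusted p = 0.0306 with limma).

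ABCA1, which exports cholesterol and phospholipid to apolipoprotein A-I and is a classical target of the LXR receptors, had 283 and 1010 normalized reads in MDA231-BR and 1410 and 1447 in MDA231-P. Both MDA231-BR libraries were below both MDA231-P libraries, and they differed from each other more than the MDA231-P libraries did. It did not pass with limma (log2 difference -1.42, 95% interval -2.59 to -0.24, adjusted p = 0.1001) or edgeR (adjusted p = 0.121), and passed with DESeq2 (adjusted p = 0.0429). With limma its log2 difference was -0.50 without MDA231-BR library A (adjusted p = 0.189), and -2.33 without library B (adjusted p = 2.662e-12). ABCG1, which passes sterols to high-density lipoprotein, had 195 and 206 normalized reads in MDA231-BR and 247 and 318 in MDA231-P (log2 difference -0.49, adjusted p = 0.284 with limma). ABCA7, a phospholipid transporter of the same subfamily, had 43.2 and 110 in MDA231-BR and 112 and 143 in MDA231-P (adjusted p = 0.2498 with limma).

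Other LXR and sterol efflux genes gave 1 higher, 1 lower and 9 not passing of 11 tested, beside 14.4% of all genes called. RXRB, a partner receptor of LXR, was higher (log2 difference 0.84, adjusted p = 0.0430 with limma), and SCD, the stearoyl-CoA desaturase, was lower, with 4838 and 5410 normalized reads in MDA231-BR and 14333 and 10610 in MDA231-P (log2 difference -1.27, adjusted p = 0.0128 with limma). Genes of the SREBP2 programme make and take up cholesterol. They gave 1 higher, 1 lower and 12 not passing of 14, a share called near the 14.4% of all genes. HMGCS1, a synthase early in the cholesterol pathway, was the lower one (log2 difference -1.03, adjusted p = 0.0392 with limma). The median log2 difference of the 14 was -0.50, against 0.01 over all genes tested, and 3 of the 14 differences were positive. Both MDA231-BR libraries lay below both MDA231-P libraries in 8 of the 14 and above them in 3. Over all genes tested these shares were 29.7% and 31.7%.

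Of the low ABCA genes, ABCA13 had 15.4 and 31.8 normalized reads in MDA231-BR and 3.41 and 9.70 in MDA231-P and did not pass (log2 difference 1.75, adjusted p = 0.121 with limma). ABCA12, the keratinocyte lipid transporter, had 6.72 and 6.36 normalized reads in MDA231-BR and 3.41 and 4.85 in MDA231-P, and ABCA4, the retinal transporter, had 2.88 and 3.18 in MDA231-BR and 5.12 and 5.82 in MDA231-P. Both were below the filter and untested.

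**Figure D2:**
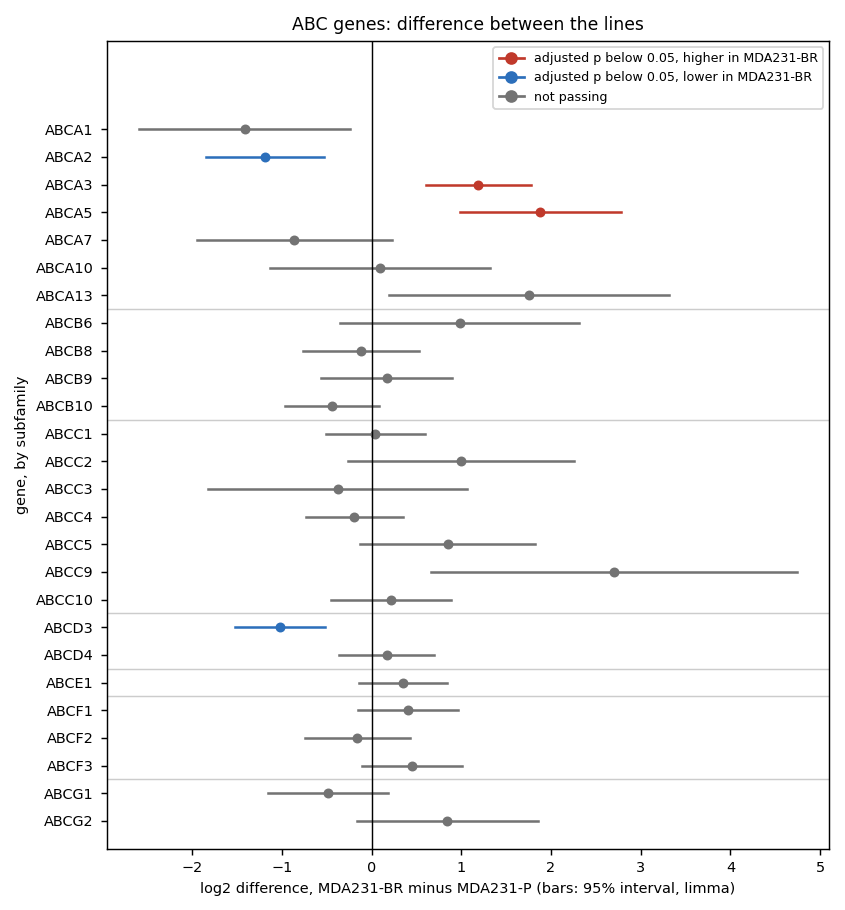
Log2 difference of 26 of the 28 tested ABC genes, MDA231-BR minus MDA231-P, with its 95% interval from limma, by subfamily. Of the genes drawn, red marks 2 called higher, blue 2 called lower and grey 22 that did not pass, among them all tested ABCC, ABCE, ABCF and ABCG genes.

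The mitochondrial ABCB genes described here did not pass. ABCB10, an inner membrane protein tied to heme formation, had 1024 and 1019 normalized reads in MDA231-BR and 1291 and 1493 in MDA231-P. The lines did not overlap, but the difference did not pass (log2 difference -0.44, adjusted p = 0.224 with limma), and 3 pseudogene copies of ABCB10 are annotated.

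ABCB8, also of the inner membrane, overlapped between the lines, with 280 and 384 normalized reads in MDA231-BR and 352 and 360 in MDA231-P (adjusted p = 0.801 with limma). ABCB6, a porphyrin transporter, had 18.2 and 46.6 in MDA231-BR and 16.2 and 12.6 in MDA231-P (adjusted p = 0.279 with limma). Other mitochondrial iron-sulfur and heme genes gave 1 higher, 2 lower and 24 not passing of 27, a share near the 14.4% of all genes called. SLC25A37 (mitoferrin-1), which carries iron into mitochondria, had 6891 and 14920 normalized reads in MDA231-BR and 3118 and 3336 in MDA231-P (log2 difference 1.65, adjusted p = 0.0193 with limma). The iron-sulfur assembly genes ISCA2 (log2 difference -1.19, adjusted p = 0.0464) and LYRM4 (log2 difference -1.004, adjusted p = 0.0499) were lower with limma.

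No drug or conjugate efflux gene was called. Of 7 tested (ABCC1 to ABCC5, ABCC10 and ABCG2), 0 passed with limma, edgeR or DESeq2, and 0 had an unadjusted limma p below 0.05. With 14.4%, 15.4% and 20.2% of all genes called by these tools, a count of 0 among 7 is near the background. ABCC1 (MRP1), the most abundant ABCC gene, had 2258 and 2575 normalized reads in MDA231-BR and 2692 and 2034 in MDA231-P, fully overlapping. Its log2 difference was 0.04 with a 95% interval of -0.51 to 0.60 (adjusted p = 0.920 with limma). ABCC4 (MRP4), a pump for cyclic nucleotides and prostaglandins, had 1423 and 1728 in MDA231-BR and 1942 and 1656 in MDA231-P, with a log2 difference of -0.19 and an interval of -0.73 to 0.35 (adjusted p = 0.608 with limma).

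ABCG2, the breast cancer resistance protein, had 145 and 336 normalized reads in MDA231-BR and 102 and 146 in MDA231-P. Library A of MDA231-BR lay within the MDA231-P range and library B above it. The interval of the log2 difference, -0.16 to 1.85 around 0.85, was wide (adjusted p = 0.224 with limma). ABCG2 was called without MDA231-BR library A (log2 difference 1.45, adjusted p = 0.000366) and not without library B (0.24, adjusted p = 0.720).

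ABCC5 (MRP5), which exports cyclic nucleotides, showed the same order of libraries, with 730 and 1923 normalized reads in MDA231-BR and 740 and 583 in MDA231-P (adjusted p = 0.208 with limma). ABCC2 (MRP2), a conjugate pump of the hepatocyte canalicular membrane, had 40.3 and 122 in MDA231-BR and 37.5 and 32.0 in MDA231-P (adjusted p = 0.248 with limma). ABCC3 (MRP3), a pump for glucuronides and bile salts, had 101 in MDA231-BR library A, below both MDA231-P libraries, and 479 in library B, above both, with 333 and 246 in MDA231-P (adjusted p = 0.712 with limma). Its log2 difference was 0.74 without MDA231-BR library A and -1.50 without library B.

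ABCC10 overlapped between the lines (371 and 519 in MDA231-BR, 421 and 339 in MDA231-P). ABCC11 was at 3 and 3 reads in the MDA231-BR libraries and 1 and 0 reads in the MDA231-P libraries and was untested. Where 0 reads were found, a count of up to 3 reads is allowed by counting error.

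ABCC9 (SUR2), which is not a pump but the regulatory subunit of ATP-sensitive potassium channels, had 21.1 and 167 normalized reads in MDA231-BR and 5.97 and 11.6 in MDA231-P. It did not pass with limma (log2 difference 2.70, SE 0.89, 95% interval 0.66 to 4.74, adjusted p = 0.0786), and it passed with edgeR (adjusted p = 0.0340) and DESeq2 (adjusted p = 0.00103), the only ABC gene that edgeR added. Without MDA231-BR library B its log2 difference was 1.24 and did not pass (adjusted p = 0.127 with limma), and without library A it was 4.17. The pore subunits KCNJ8 and KCNJ11 had no value under their symbols and were not analysed here.

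Genes that share a task with the efflux pumps were read beside them. The receptors and regulators that sense xenobiotics gave 0 higher, 0 lower and 7 not passing of 7, near the background of 14.4%. AHR, the aryl hydrocarbon receptor and the most abundant of them in MDA231-BR, had a log2 difference of 0.51 (adjusted p = 0.189 with limma). NRF2 targets gave 0 higher, 2 lower and 7 not passing of 9, beside 5.8% of all genes called lower. The 2 were ME1, the NADP-dependent malic enzyme (log2 difference -1.16, adjusted p = 0.0156 with limma), and GCLM, a subunit of the enzyme that starts glutathione synthesis (log2 difference -1.06, adjusted p = 0.0176 with limma).

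Glutathione supplies the conjugates that MRP pumps carry, and its synthesis and conjugation genes gave 2 higher, 4 lower and 13 not passing of 19, beside 8.61% higher and 5.8% lower over all genes. This list shares GCLC and GCLM with the NRF2 targets, and GCLM is counted as lower in both. GSTP1, a glutathione S-transferase, had 238 and 258 normalized reads in MDA231-BR and 4277 and 5167 in MDA231-P (log2 difference -4.24, adjusted p = 0.00014 with limma). GSTM3, another transferase, was lower too (log2 difference -1.30, adjusted p = 0.0260 with limma), while CHAC1, which degrades glutathione, was higher (log2 difference 1.64, adjusted p = 0.0195 with limma).

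Other genes of drug efflux or uptake gave 3 higher, 1 lower and 10 not passing of 14, where 8.61% of all genes were higher and 5.8% lower. SLCO1B3, an uptake carrier for organic anions and some taxanes, had 1576 and 1126 normalized reads in MDA231-BR and 296 and 428 in MDA231-P (log2 difference 1.90, adjusted p = 0.00594 with limma). MVP, the major vault protein, long studied in drug resistance, was higher (log2 difference 0.98, adjusted p = 0.0247 with limma). SLC31A1, the copper carrier that also takes up platinum drugs, was lower (log2 difference -0.82, adjusted p = 0.0413 with limma).

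**Figure D3:**
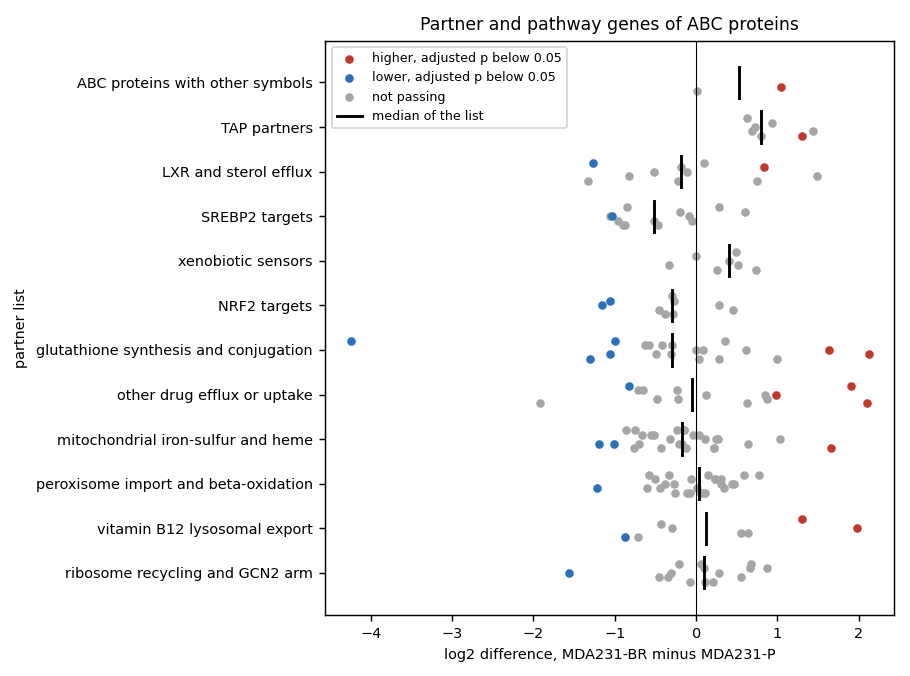
Log2 difference, MDA231-BR minus MDA231-P, of tested genes in each partner list of ABC proteins, with genes called higher in red, called lower in blue and the rest in grey, and a black bar at each list's median. The points spread to both sides of 0 in most lists, and the point farthest left is GSTP1 at -4.24.

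Of the 4 ABC genes of translation, 0 were called with limma, edgeR or DESeq2, and 0 had an unadjusted limma p below 0.05, which with 14.4%, 15.4% and 20.2% of all genes called is near the background. ABCE1, which splits ribosomes after termination so that they can be used again, had 8820 and 8330 normalized reads in MDA231-BR and 7143 and 6330 in MDA231-P. The libraries did not overlap, and the log2 difference was 0.35 (adjusted p = 0.298 with limma). ABCE1 overlaps ANAPC10 and OTUD4 on the opposite strand.

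ABCF1, which binds the initiation factor eIF2, had 5524 and 6327 normalized reads in MDA231-BR and 5195 and 3832 in MDA231-P (adjusted p = 0.283 with limma). ABCF3, a relative of the yeast regulator Gcn20, had 1296 and 1355 in MDA231-BR and 1101 and 853 in MDA231-P (adjusted p = 0.238 with limma), and ABCF2 had 2481 and 2599 in MDA231-BR and 3431 and 2337 in MDA231-P (adjusted p = 0.704 with limma). The intervals of the 4 log2 differences lay between -0.74 and 1.01.

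Genes of ribosome recycling and of the GCN2 arm of translation control gave 1 higher, 1 lower and 14 not passing of 16, near the 14.4% of all genes called. EIF2S3, the gamma subunit of eIF2, had 3028 and 3617 normalized reads in MDA231-BR and 10254 and 9388 in MDA231-P (log2 difference -1.57, adjusted p = 0.00399 with limma).

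TAP1 and TAP2, ABC proteins whose symbols fall outside the rule, form the pump that feeds peptides to MHC class I. TAP2 had 4692 and 6770 normalized reads in MDA231-BR and 3055 and 2459 in MDA231-P and was higher (log2 difference 1.04, adjusted p = 0.0348 with limma). TAP1 had 2172 and 2089 in MDA231-BR and 1915 and 2344 in MDA231-P and did not pass (log2 difference 0.01, adjusted p = 0.985 with limma). Of 7 genes that work with TAP in peptide loading, 1 was higher and 6 did not pass, beside 14.4% of all genes called, and that gene was TAPBP, the tapasin bridge (log2 difference 1.31, adjusted p = 0.0197 with limma). The median of the 7 was 0.18 above the MDA231-P mean in MDA231-BR library A and 1.44 above it in library B, on the log2 scale.

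The spread of the MDA231-BR libraries was wider over the ABC genes than over all genes. In 10 of the 28 tested genes the MDA231-BR libraries differed by more than 1 on the log2 scale, always with library B higher, and the 10 were ABCA1, ABCA5, ABCA7, ABCA13, ABCB6, ABCC2, ABCC3, ABCC5, ABCC9 and ABCG2. That is 35.7% of them, against 10.9% of all genes tested, or 7.54% counting only library B higher. The MDA231-P libraries differed by as much in 1 of the 28, ABCA13. Library B exceeded library A in 24 of the 28 ABC genes and in 50.03% of all genes. Set against the MDA231-P mean, the 28 genes had a median log2 difference of 0.03 in library A, and of 0.47 in library B. All genes had medians of 0.01 (library A) and 0.03 (library B).

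Transcript length moved with this pattern. Library B exceeded library A in 15 of 15 ABC genes whose longest transcript has 5000 bases or more, and in 73.0% of the 3896 other tested genes of that length. Below that length the figures were 9 of 13 ABC genes and 41.4% of 10446 other genes. Of the 10 ABC genes split by more than 1, 8 were long and 2 were short, and among the other genes the share split that far with library B higher was 9.29% of the long and 6.78% of the short. The interferon and unfolded protein response genes given above moved the same way, and the part of length or of these programmes in the ABC values was not tested.

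The calls differ accordingly. Without MDA231-BR library A, 12 ABC genes were called with limma, 10 of them higher, the additions being ABCA13, ABCB6, ABCC2, ABCC5, ABCC9 and ABCG2. Without library B, 9 were called, 5 of them lower, the additions being ABCA1, ABCA7 and ABCC3. ABCA2, ABCA3 and ABCD3 had MDA231-BR libraries within 1 of each other.

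**Figure D4:**
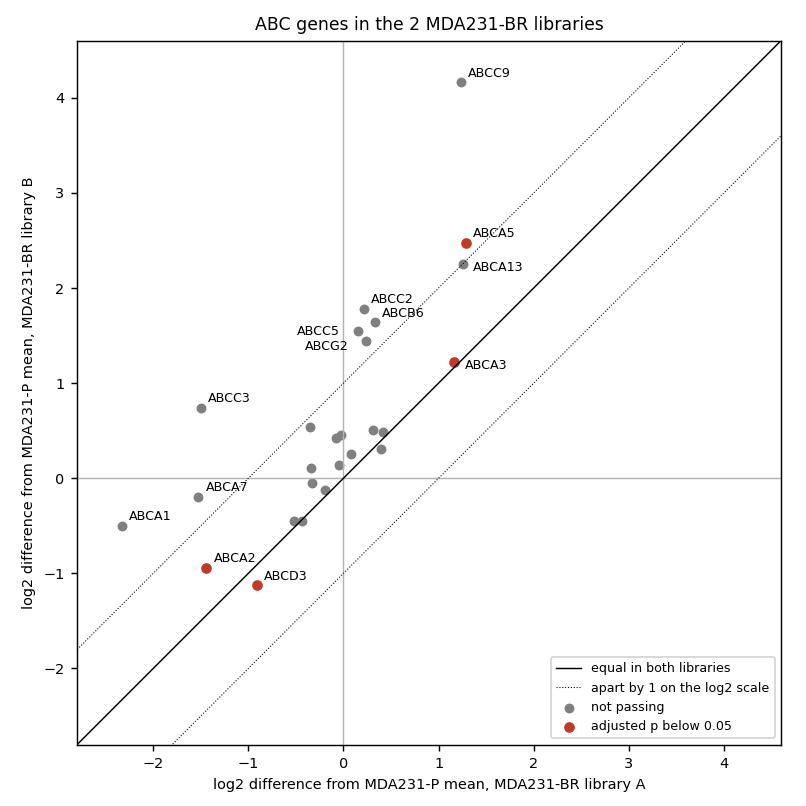
Log2 difference of 26 of the 28 tested ABC genes from the MDA231-P mean in MDA231-BR library A (x axis) and library B (y axis), with a solid line where they are equal, dotted lines 1 apart and red for the 4 called genes drawn. Of the 26 points, 23 lie above the solid line and 10 above the upper dotted line, and ABCC9 lies farthest from the solid line.

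Counting the family by groups that did not overlap gave 11 tested genes with both MDA231-BR libraries above both MDA231-P libraries and 6 with both below, of 28. Over all genes tested 31.7% were separated upwards and 29.7% downwards, 61.3% together, so the family's count of 17 was near the background.

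Levels between genes were compared as CPM per kilobase of the longest transcript, a measure of level and not of difference. By its mean, ABCE1 stood first in both lines, at 80.5 ± 4.06 in MDA231-BR and 64.9 ± 6.35 in MDA231-P (mean ± SD, n = 2 each). In MDA231-P library B, however, ABCD3 (60.54) was just above ABCE1 (60.40). ABCF1 had rank 2 in MDA231-BR at 62.6 ± 5.38, and stood lower in MDA231-P at 49.0 ± 11.1. ABCD3, at 28.0 ± 3.21 in MDA231-BR and 58.0 ± 3.56 in MDA231-P, came below ABCF1 in MDA231-BR and above it in MDA231-P, where the libraries of the 2 genes overlapped. ABCF2 (rank 4) and ABCD4 (rank 5) kept their places in both lines.

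Within subfamily ABCA, the highest mean level per kilobase was that of ABCA3 in MDA231-BR and of ABCA1 in MDA231-P, though in MDA231-BR library B ABCA5 (5.27) exceeded ABCA3 (4.02). ABCC1, ABCD3, ABCF1 and ABCG1 had the highest means of their subfamilies in both lines, but ABCG2 (2.74) exceeded ABCG1 (2.16) in MDA231-BR library B. ABCA3 had rank 12 of 31 in MDA231-BR and rank 18 in MDA231-P, and ABCA1 had rank 17 in MDA231-BR and rank 11 in MDA231-P. Of the 30 pairs of neighbours in the order, 17 had overlapping libraries in MDA231-BR and 14 in MDA231-P, so the order within those pairs is not fixed. The libraries of the other pairs, 13 in MDA231-BR and 16 in MDA231-P, did not overlap. The summed level of the 31 genes was 1228 and 1385 CPM in MDA231-BR and 1384 and 1222 CPM in MDA231-P, which overlapped.

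**Figure D5:**
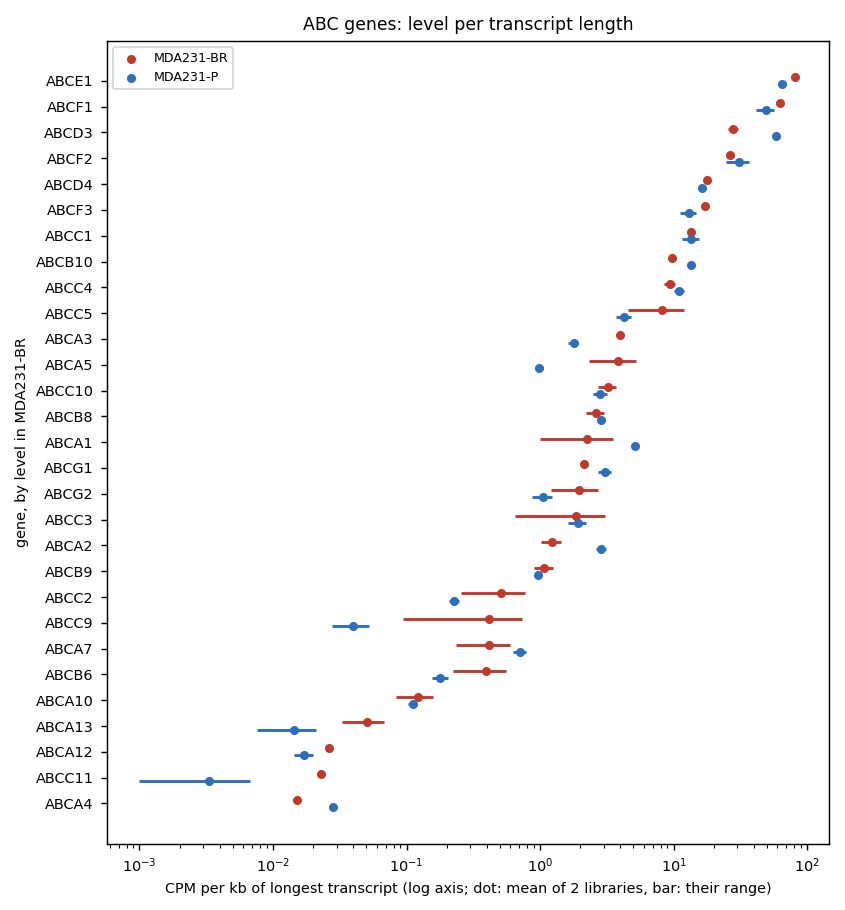
Level of 29 of the 31 ABC genes in CPM per kilobase of longest transcript (log axis), as the mean of 2 libraries with a bar for their range, MDA231-BR in red and MDA231-P in blue, ordered by the MDA231-BR level. Levels run from ABCE1, at 80.5 in MDA231-BR and 64.9 in MDA231-P, down to ABCA4 and ABCC11, and the bar of ABCC11 in MDA231-P reaches 0, which the axis cannot show.

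The positions of called genes, and of ABCA1, were read from GENCODE v29. Neighbours of a gene were the 5 tested genes on each side, ordered by their start positions. ABCA1 and ABCA2 lie on chromosome 9, where 561 other tested genes had a median of -0.31, with 5.53% called higher and 12.3% lower. The 10 genes around ABCA2 had a median of -0.70 with 2 called lower. ABCD3 lies on chromosome 1, whose other genes had a median of 0.07, and its 10 neighbours had a median of -0.39 with 2 called lower. ABCA3 lies on chromosome 16 among neighbours with a median of -0.12 and no call in either direction, and ABCA5 on chromosome 17 among neighbours with a median of 0.50 and 1 called higher. The number of copies of these regions in either line was not analysed here, and its part in the values was not tested.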

How the data were processed

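RNA-seq libraries of MDA231-BR and MDA231-P cells, 2 of each, were analysed. Reads were processed with HISAT2, featureCounts and DESeq2 on GRCh37, per the submitters' processing notes, with versions, annotation and strand setting not given in the sources used here. The authors deposited a read signal per gene divided by a size factor in each library. Every value was a whole multiple of 1 step per column (100% within 0.01 reads), so whole reads were recovered. Of 15346 rows, 67 without a name (0.031% to 0.0369% of reads) were left out, and 20 names turned into dates were not matched.

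The main test was limma-trend 3.58.1 (R 4.3.3) on log2(value + 1), which understates changes of low genes. It was fitted to the 14424 genes that passed edgeR's filterByExpr (minimum count 10, minimum total 15; 855 removed), with Benjamini-Hochberg adjustment over all of them. edgeR 4.0.16 (quasi-likelihood), DESeq2 1.42.0 and limma-voom on recovered reads, other scalings, pseudocounts and filters, and leaving out each library were alternatives. Scripts were tested on simulated data. Members and lists were chosen with earlier results of these data known. Genes named were members and, per partner list, up to 2 passing genes with the largest increase and 2 with the largest decrease at 5 CPM or more, else the most abundant, with TAP1 and TAP2 always. MMUT was read under its older symbol, MUT. Lengths, chromosome names and the order of genes came from GENCODE v29 by symbol, and promoters from RefSeq (GRCh38.p14), so no GRCh37 coordinates are given. Results for some genes are not reported here or drawn in figures. A read was worth 0.0325 to 0.0387 CPM.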

Additional observations from a re-analysis of the deposited data

How the results depend on the processing

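With all 4 libraries kept, no ABC gene changed direction, and the 6 called genes were called in all 11 fits. edgeR added ABCC9, and DESeq2 added ABCC9 and ABCA1 (7 and 8 calls). Leaving out each library in turn moved the number of ABC genes called between 0 and 12 with both limma and edgeR, the number higher between 0 and 10 and the number lower between 0 and 5. The number of partner genes called ranged from 1 to 66 with limma (higher 0 to 31, lower 1 to 35). With edgeR it was 2 (0 higher, 2 lower) without MDA231-P library A, 3 (1 higher, 2 lower) without MDA231-P library B, and 63 (28 higher, 35 lower) without MDA231-BR library A. In those fits the spread of the line with 1 library was assumed to be that of the other line. The edgeR fits with a library left out were chosen after seeing the data. The log2 differences that changed sign when a library was left out ranged, with limma, from -0.35 to 0.54 for ABCA10, -0.34 to 0.11 for ABCB8, -0.080 to 0.42 for ABCB9, -0.16 to 0.25 for ABCC1, -1.50 to 0.74 for ABCC3, -0.027 to 0.46 for ABCC10, -0.43 to 0.12 for ABCF2 and -0.14 to 0.15 for TAP1. With edgeR the sign changed without MDA231-BR library A for ABCB8 (0.063), ABCC3 (0.68) and TAP1 (-0.071). It changed without MDA231-BR library B for ABCA10 (-0.38), ABCB9 (-0.085), ABCC1 (-0.071) and ABCC10 (-0.041). It changed without MDA231-P library A for ABCC3 (0.20), ABCF2 (0.10) and TAP1 (-0.16), and without MDA231-P library B for ABCC1 (-0.16). TAP1 was also on the other side of 0 with edgeR and all libraries (-0.0245). The cause of these changes was not tested. No paired analysis was possible because the columns carry no replicate number. With 2 libraries a line, ABC genes with few reads (ABCA4, ABCA12, ABCC11) could not be tested, and wide intervals, as for ABCC9 and ABCA13, leave the size of a difference uncertain.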
